A study of Mus musculus with 12 samples.

Results

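The genes described are 9 complement components and receptors of the mouse: the C1q chain genes C1qa, C1qb and C1qc, the components C4b and C3, the alternative pathway genes Cfb and Cfp, and the receptor genes C3ar1 and C5ar1. They were chosen by name, and each matched 1 row of the 57010 genes in the deposited count table. The samples were 12 RNA-seq libraries of large peritoneal macrophages, which reside in the peritoneal cavity, from female mice, with 3 libraries in each of 4 groups. WT naive and Tim4KO naive macrophages came from unchallenged wild-type mice and from unchallenged mice that lack Tim4, a receptor for dying cells encoded by Timd4. WT ID8 and Tim4KO ID8 macrophages came from mice of the same genotypes that received ID8ZGO cells intraperitoneally at 8 weeks of age and were sampled 24 h later. ID8 is a mouse ovarian tumour line, and ID8ZGO carries the fluorescent protein ZsGreen and ovalbumin. All cells were sorted as F4/80 high and MHC class II low, and the ID8 groups were further sorted for ZsGreen. The ID8 comparisons therefore take injection and uptake of tumour material together. How the Tim4 allele was made, the age of the naive mice and whether a library came from 1 mouse or from a pool are not given in the sources used here. The p-values then measure the spread between these libraries, which may be technical. The stated purpose of the series was to see which transcriptional changes follow phagocytosis with and without Tim4.

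Complement is a cascade of plasma proteins that marks particles for uptake and recruits leukocytes. C1q, assembled from 3 kinds of chain, binds antibody, dying cells and other targets and starts the classical pathway, in which C4 and C2 form the enzyme that cleaves C3. Factor B and properdin, encoded by Cfb and Cfp, drive the alternative pathway that amplifies C3 cleavage. The fragments C3a and C5a act on leukocytes through the receptors encoded by C3ar1 and C5ar1. Most plasma complement comes from the liver, while C1q and properdin are made largely by myeloid cells, and C1q promotes the clearance of dying cells by resident macrophages.

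Library totals ranged from 7358559 to 23170244 counts. Levels are given in CPM, counts scaled to a common library total, after TMM scaling (trimmed mean of M values). A floor of 3 counts equalled 0.136 to 0.398 CPM. The 10 large peritoneal macrophage markers other than Timd4 had at least 993 counts in every library. Timd4 itself had 9685 to 21320 counts in the WT libraries and 20 to 128 in the Tim4KO libraries, so each library matched the genotype in its label. WT ID8 3 stood apart. Its counts differed from those of WT ID8 1 and WT ID8 2 by a chi-square divided by its degrees of freedom of 46.5 and 78.6, against at most 21.6 in any other pair of the same group. It also had the highest total and the fewest genes detected, 21235. Results that rest on it are given with and without it. Reads in olfactory and vomeronasal receptor genes, a measure of background, summed to 273 to 886 CPM in naive libraries and 5.91 to 368 CPM in ID8 libraries. The 5.91 CPM was that of WT ID8 3, against 255 and 79.7 CPM in WT ID8 1 and WT ID8 2.

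The levels of the 9 genes differed widely, and this was seen most directly per length of exon. In WT naive cells C1qb stood at 3611 ± 345 CPM per kb (SD, n = 3), C1qc at 2293 ± 117, Cfp at 2222 ± 122, C1qa at 1406 ± 103 and C4b at 953 ± 163 CPM per kb. C1qb, C1qc and Cfp ranked 10, 19 and 20 by level per kb among 15671 ranked genes. The receptor genes were lower, with C5ar1 at 182 ± 24.0 and C3ar1 at 103 ± 6.36 CPM per kb. C3 and Cfb were the lowest of the 9 in each group, at 34.5 ± 15.1 and 18.9 ± 4.59 CPM per kb in WT naive cells. The place of Cfb is uncertain, because 73.0% of its 50-base windows also occur in the gene model Gm20547 and reads there may be lost. For C4b, 34.6% of windows also occur in C4a. In WT naive cells the libraries of neighbours in this order overlapped for C1qc with Cfp and for C3 with Cfb, and did not overlap for the other 6 neighbouring pairs. C3 transcript was thus far scarcer than that of C4b, the component upstream of it, in each of the 4 groups. C3 ranked 1251 in WT naive cells, where C4b ranked 42.

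**Figure D1:**
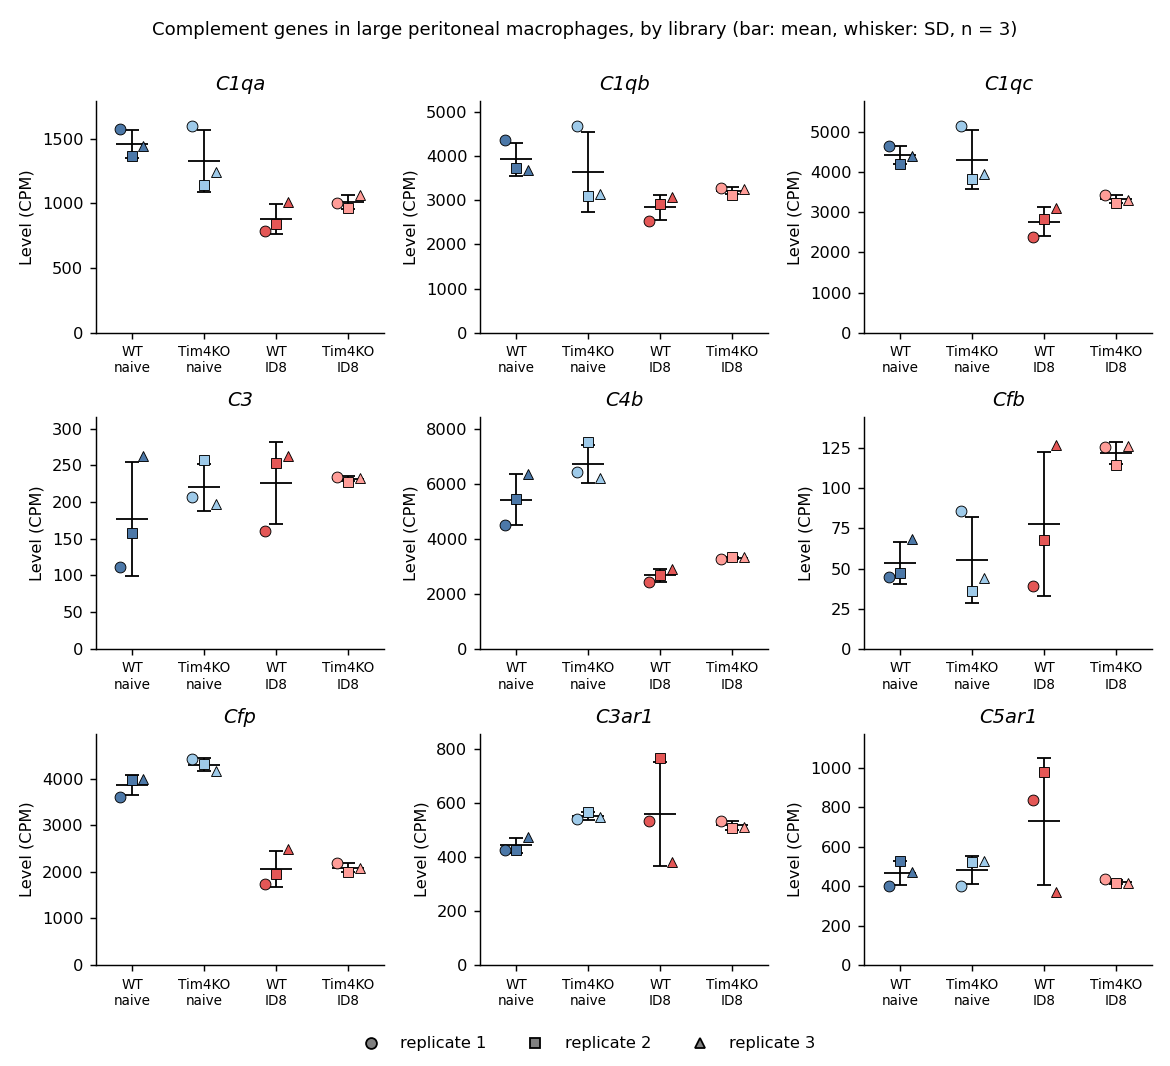
Level in CPM (y axis, from 0) of each of the 9 genes in each library, by group (x axis), with symbols for the replicate number, a bar for the mean and whiskers for the SD (n = 3). C4b and Cfp are lower in every ID8 library than in every naive library, whereas C3ar1 and C5ar1 are spread most widely among the WT ID8 libraries.

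In WT macrophages, challenge lowered 5 of the 9 genes, namely C1qa, C1qb, C1qc, C4b and Cfp, and raised none of them. Each was called by edgeR's quasi-likelihood test (adjusted p under 0.05, Benjamini-Hochberg adjustment across 15943 tested genes). Of all tested genes, 12.3% were called lower and 19.5% were called higher in this comparison. The median log2 change was -0.47 over the 9 genes and -0.04 over all tested genes. In Tim4KO macrophages 2 of the 9 were called lower, C4b and Cfp, and none was called higher. There 5.06% of all tested genes were called lower and 11.5% were called higher, and the median log2 change was -0.19 over the 9 genes and -0.05 over all. Bulk RNA cannot tell fewer cells of a type from less RNA per cell, so a lower level has both readings.

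**Figure D2:**
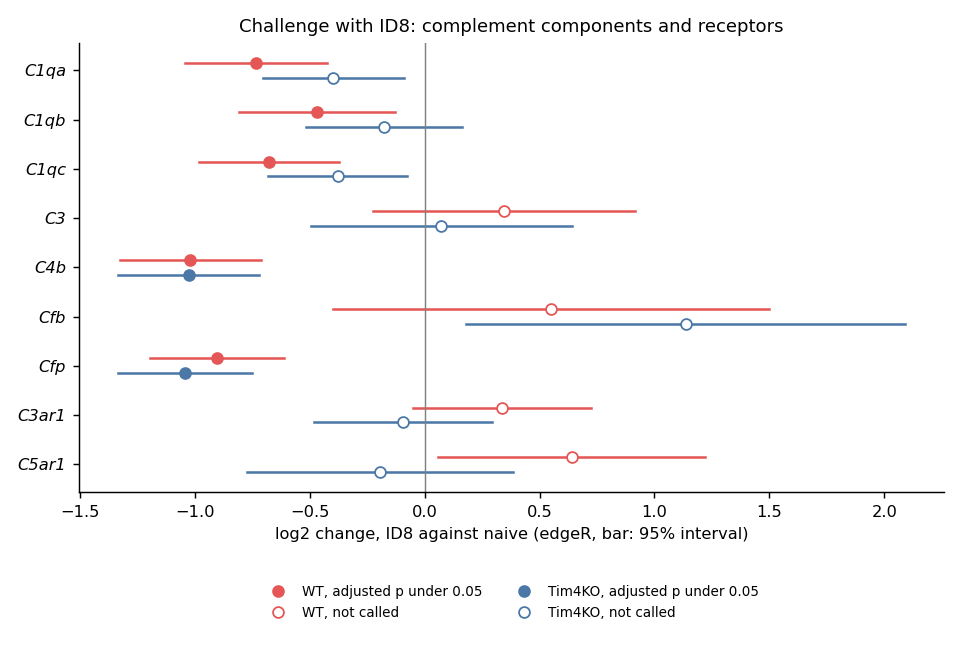
log2 change between ID8 and naive cells (x axis) for each of the 9 genes (y axis), with 95% intervals from the edgeR fit, in WT (red) and Tim4KO (blue). Filled points passed the test: C1qa, C1qb, C1qc, C4b and Cfp in WT, and C4b and Cfp in Tim4KO.

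C1qa, C1qb and C1qc encode the A, B and C chains of C1q and are neighbours on mouse chromosome 4. RefSeq promoters, from 250 bases before to 50 after the start site, were at hand for 6 of the 9 genes. Those of C1qb (chr4:136886151-136886450, minus strand) and C1qc (chr4:136892865-136893164, minus strand), in build GRCm38.p6, are shown because these neighbouring genes moved together. Capitals mark matches to the motifs searched on both strands.
C1qb: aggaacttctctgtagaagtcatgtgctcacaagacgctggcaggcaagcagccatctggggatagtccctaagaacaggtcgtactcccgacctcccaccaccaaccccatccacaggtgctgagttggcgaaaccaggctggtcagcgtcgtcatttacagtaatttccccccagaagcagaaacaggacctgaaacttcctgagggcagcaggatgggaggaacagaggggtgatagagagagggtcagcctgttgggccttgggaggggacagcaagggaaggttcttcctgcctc
C1qc: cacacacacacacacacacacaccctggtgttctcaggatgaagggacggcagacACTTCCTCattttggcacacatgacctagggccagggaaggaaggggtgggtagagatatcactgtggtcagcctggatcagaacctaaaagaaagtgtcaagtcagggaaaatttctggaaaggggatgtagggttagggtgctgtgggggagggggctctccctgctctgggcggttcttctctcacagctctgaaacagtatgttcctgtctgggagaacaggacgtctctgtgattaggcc
The capitals in C1qc are a match on the reverse strand to GAGGAAGT, a core that the myeloid factor PU.1 is known to bind, 195 bases before the start site. That core occurs in 3.20% of all 32851 promoters of the same length in the table. Also searched were TTGCNNAA for C/EBP, TGANTCA for AP-1, GGGA and TTCC 2 bases apart for NF-kB, GAAA and GAAA 2 bases apart for interferon response and CACGTG for the E-box. C1qb held no match to these letters.

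C1qa stood at 1577, 1364 and 1446 CPM in naive WT libraries and at 788, 838 and 1013 CPM in challenged ones. In Tim4KO cells it stood at 1601, 1146 and 1243 CPM when naive and at 1004, 962 and 1066 CPM after ID8. Every ID8 library was below every naive library, in both genotypes. The change was -0.73 on the log2 scale in WT cells, a 1.66-fold decrease (SE 0.14, edgeR adjusted p = 0.00175). It was -0.40 in Tim4KO cells and did not pass the test (SE 0.14, edgeR adjusted p = 0.0757). C1qc followed the same course. Its levels were 4658, 4208 and 4419 CPM in WT naive and 2383, 2824 and 3099.7 CPM in WT ID8, without overlap. In Tim4KO cells they were 5159, 3845 and 3951 CPM when naive and 3433, 3226 and 3317 CPM after ID8, again without overlap. The log2 change of C1qc was -0.68 in WT (SE 0.14, edgeR adjusted p = 0.00265) and -0.38 in Tim4KO (SE 0.14, edgeR adjusted p = 0.0845). C1qb, the most abundant chain transcript per kb, changed least of the 3. It stood at 4362, 3730.1 and 3696 CPM in WT naive and 2528, 2919 and 3079.6 CPM in WT ID8, a log2 change of -0.47 (SE 0.16, edgeR adjusted p = 0.0373). In Tim4KO cells C1qb stood at 4689.8, 3101 and 3133 CPM when naive and 3277, 3128 and 3255 CPM after ID8. Those groups overlapped, and the log2 change was -0.18 (SE 0.16, edgeR adjusted p = 0.495).

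C1qa and C1qc were called in WT under all 9 other settings and all 12 fits that left out 1 library, while C1qb was called in 7 of the 9 and in 2 of the 12. Those 2 fits left out Tim4KO naive 1 or WT ID8 3, and the change nearest 0, -0.32 without WT ID8 1, had an edgeR adjusted p of 0.159. In Tim4KO the outcome turned on the setting. C1qa and C1qc each passed in 5 of 9 settings, with log2 changes of -0.43 (edgeR adjusted p = 0.0338) for C1qa and -0.41 (edgeR adjusted p = 0.0357) for C1qc in a fit to the Tim4KO groups alone. Without WT ID8 3, C1qa passed there as well, at -0.38 (edgeR adjusted p = 0.0476). The Tim4KO change minus the WT change was 0.34 for C1qa, 0.29 for C1qb and 0.30 for C1qc. The 95% intervals were -0.10 to 0.77, -0.19 to 0.77 and -0.13 to 0.73, and no chain passed the test of this difference (edgeR adjusted p from 0.707 to 0.748). The chains are thus not shown to fall less in Tim4KO cells, and a difference of up to 0.77 lies within these intervals.

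Summed over the chains, C1q went from 9819.6 ± 685 to 6491 ± 751 CPM with challenge in WT cells and from 9290.2 ± 1874 to 7556 ± 211 CPM in Tim4KO cells (SD, n = 3). As a share of the raw counts this was 1.01% ± 0.103 before and 0.617% ± 0.0582 after challenge in WT, and 0.949% ± 0.148 and 0.751% ± 0.00806 in Tim4KO. The proportions of the chain transcripts moved a little with challenge. Per kb, C1qb made up 47.0% to 50.6% of the C1q level in the 6 naive libraries and 52.2% to 54.2% in the 6 ID8 libraries, without overlap. The share of C1qa went from 19.2% ± 0.363 to 17.3% ± 0.898 in WT and from 18.7% ± 0.748 to 17.2% ± 0.597 in Tim4KO. That of C1qc went from 31.4% ± 0.981 to 29.3% ± 0.582 in WT and from 32.8% ± 1.22 to 30.5% ± 0.471 in Tim4KO. These shares are a description and were not tested. A share within a library does not depend on how libraries are scaled to one another.

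**Figure D3:**
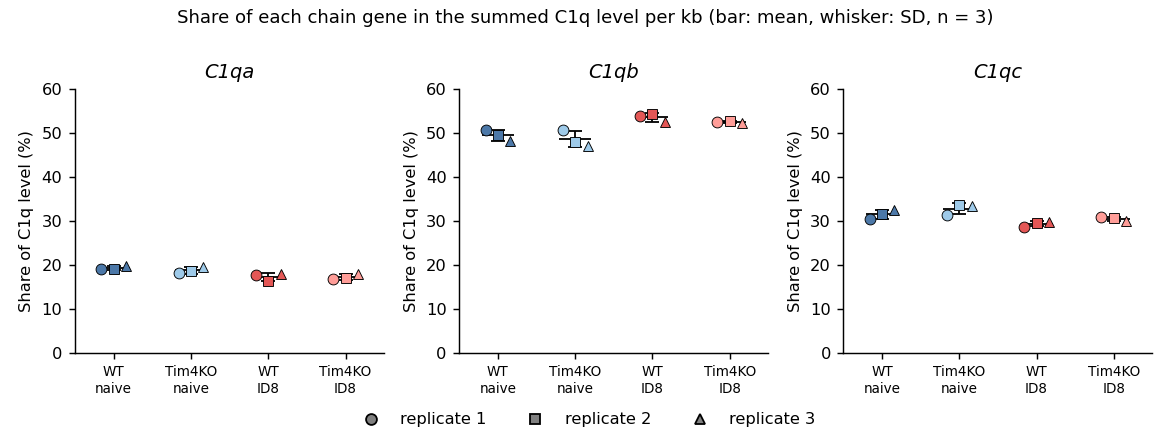
Share of each chain gene in the summed C1q level per kb (y axis, percent) for each library, by group (x axis), with a bar for the mean and whiskers for the SD (n = 3). C1qb lies at 52.2% to 54.2% in the ID8 libraries, above the 47.0% to 50.6% of the naive libraries.

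C4b encodes complement C4, which the C1 complex cleaves. Its levels were 4491, 5445 and 6349 CPM in WT naive and 2423, 2704 and 2905 CPM in WT ID8. In Tim4KO they were 6429, 7524 and 6235 CPM when naive and 3255, 3342 and 3324 CPM after ID8. Each ID8 library was lower than each naive library of either genotype. The log2 change was -1.02 in WT (SE 0.14, edgeR adjusted p = 0.000153) and -1.02 in Tim4KO (SE 0.14, edgeR adjusted p = 0.000302), a 2.03-fold decrease in each. The difference between these changes was -0.01, with a 95% interval of -0.43 to 0.42. C4b was the member with the lowest p in WT. Of the 50-base windows of C4b transcripts, 34.6% also occur in its neighbour C4a, so reads there could be divided or lost depending on the counting, which is not stated. C4a held 14 to 66 counts per library where C4b held 21143 to 111173.

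C3 encodes the central component whose fragments coat targets. WT libraries held 111, 158 and 263 CPM of C3 when naive and 161, 253 and 263 CPM after ID8. Tim4KO libraries held 207, 257 and 197 CPM when naive and 234, 228 and 233 CPM after ID8. The WT groups overlapped, and the WT naive libraries were spread more widely than those of any other group. The log2 change was 0.35 in WT (95% interval -0.22 to 0.91, edgeR adjusted p = 0.315) and 0.07 in Tim4KO (-0.50 to 0.64, edgeR adjusted p = 0.880), so changes within these bounds are not excluded. In WT it became 0.77 (edgeR adjusted p = 0.0228) without WT naive 3, the naive library with the highest C3. The WT interval of C3 does not reach the WT changes of the C1q chains or of C4b. Its Tim4KO interval does not reach the change of C4b there but includes those of the chains. C3 was not tested against these genes. Over the 12 libraries C3 and C4b had a Pearson r of -0.02, and of 0.951 with each group's mean removed. Dropping the filter on low counts gave a change of 0.46 for C3 in WT (edgeR adjusted p = 0.0405). The C3 promoter holds 1 match to TTGCNNAA, 45 bases before the start site, letters found in 10.8% of promoters.

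Cfp encodes properdin, which stabilizes the C3 convertase of the alternative pathway. The WT libraries held 3612, 3966 and 3992 CPM when naive and 1743, 1964 and 2483 CPM after ID8. The Tim4KO libraries held 4430.1, 4309 and 4158 CPM when naive and 2189, 1998 and 2079.5 CPM after ID8. As for C4b, every ID8 library lay below every naive library. The log2 change was -0.90 in WT (SE 0.14, edgeR adjusted p = 0.000254), a 1.87-fold decrease, and -1.04 in Tim4KO (SE 0.14, edgeR adjusted p = 0.00018), a 2.06-fold decrease. The difference between the changes was -0.14, with a 95% interval of -0.55 to 0.27. C4b and Cfp were called in both genotypes under all 9 other settings and in all 12 fits that left out 1 library.

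Cfb encodes factor B, the protease of the alternative pathway. WT libraries held 44.9, 47.1 and 68.4 CPM of Cfb when naive and 38.9, 67.9 and 127 CPM after ID8. Tim4KO libraries held 85.9, 36.2 and 44.1 CPM when naive and 126, 114 and 126 CPM after ID8. The Tim4KO ID8 libraries and WT ID8 3 were alike and were above all others, while WT ID8 1 and WT ID8 2 lay within the naive range. The log2 change was 1.14 in Tim4KO (95% interval 0.18 to 2.09, edgeR adjusted p = 0.104) and 0.55 in WT (SE 0.42, edgeR adjusted p = 0.330), and neither was called. Without WT ID8 3 the WT value was 0.04 (edgeR adjusted p = 0.944) and the Tim4KO value was 1.15 (edgeR adjusted p = 0.0485). The Tim4KO change passed as well without Tim4KO naive 1, the naive library with the highest Cfb (log2 change 1.62, edgeR adjusted p = 0.0287), and in a fit to the Tim4KO groups alone (1.10, edgeR adjusted p = 0.0237). Of the 50-base windows of Cfb transcripts, 73.0% also occur in the overlapping gene model Gm20547, which holds 0 counts in all 12 libraries. Reads there may have been left out of the Cfb counts, so its level is uncertain.

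C3ar1 and C5ar1 encode the receptors for C3a and C5a. Their promoters, at chr6:122856108-122856407 and chr7:16259289-16259588 in GRCm38.p6 (minus strand), are shown because both genes were highest in WT ID8 2 and lowest in WT ID8 3.
C3ar1: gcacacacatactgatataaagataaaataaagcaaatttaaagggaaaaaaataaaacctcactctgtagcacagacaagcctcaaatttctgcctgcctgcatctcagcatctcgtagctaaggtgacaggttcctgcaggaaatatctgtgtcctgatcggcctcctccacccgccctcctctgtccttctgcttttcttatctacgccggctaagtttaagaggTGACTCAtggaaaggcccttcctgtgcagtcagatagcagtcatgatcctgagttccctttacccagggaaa
C5ar1: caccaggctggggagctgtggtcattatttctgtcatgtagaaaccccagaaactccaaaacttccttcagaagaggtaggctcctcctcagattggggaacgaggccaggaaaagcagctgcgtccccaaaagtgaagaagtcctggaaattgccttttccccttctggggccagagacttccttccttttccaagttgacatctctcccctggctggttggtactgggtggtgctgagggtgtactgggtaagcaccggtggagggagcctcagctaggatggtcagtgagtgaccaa
The capitals in C3ar1 are a match to TGANTCA, the AP-1 core, 22 bases before the start site, which 7.81% of promoters hold. C5ar1 held no match to the letters searched.

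C5ar1 stood at 402, 525 and 472 CPM in naive WT libraries and at 835, 978 and 368 CPM in challenged ones. Tim4KO libraries held 400.4, 522 and 526 CPM when naive and 434, 418 and 414 CPM after ID8. WT ID8 1 and WT ID8 2 were above the other 10 libraries, and WT ID8 3 was below all of them. C3ar1 was likewise uneven, with 532, 764 and 382 CPM in challenged WT libraries, against 427, 426 and 474 CPM in naive ones. Tim4KO libraries held 539, 566 and 548 CPM when naive and 534, 506 and 509 CPM after ID8. There only WT ID8 2 was above all the others, and WT ID8 3 was again the lowest of the 12.

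**Figure D4:**
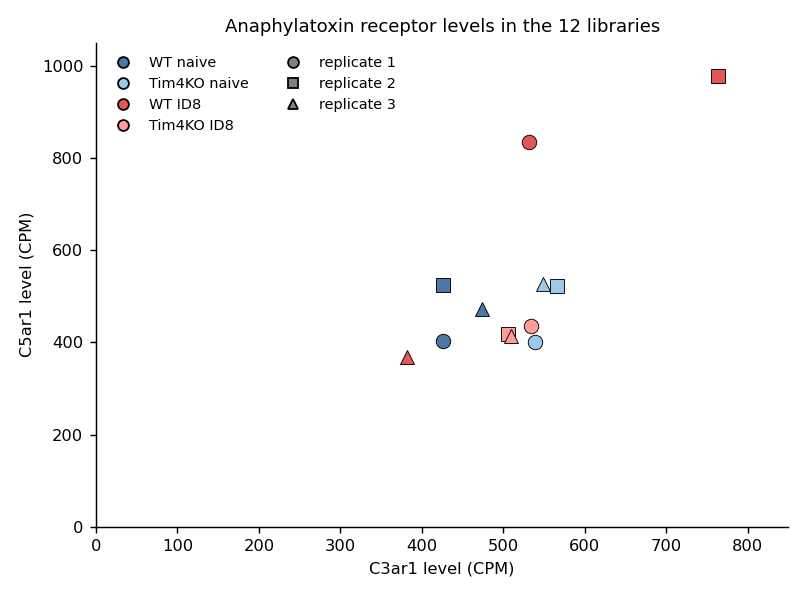
C5ar1 level (y axis, CPM) against C3ar1 level (x axis, CPM) in the 12 libraries, coloured by group with symbols for the replicate number. WT ID8 1 and WT ID8 2 lie at 835 and 978 CPM of C5ar1, and WT ID8 3 lies at the lower left with the lowest level of both receptors.

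In the fit described here no comparison called either receptor gene, and the outcome turned on WT ID8 3 and on the setting. The log2 change with challenge in WT was 0.64 for C5ar1 (SE 0.27, edgeR adjusted p = 0.0834) and 0.34 for C3ar1 (SE 0.18, edgeR adjusted p = 0.157). Without WT ID8 3 these were 0.998 (edgeR adjusted p = 2.65e-05) and 0.59 (edgeR adjusted p = 0.00378), and both were called. With all 12 libraries both were also called without a filter on low counts, C5ar1 at 0.73 (edgeR adjusted p = 6.84e-05) and C3ar1 at 0.44 (edgeR adjusted p = 0.0369), and C5ar1 was called with the background covariate (1.02, edgeR adjusted p = 0.0230). That covariate was lowest by far in WT ID8 3 (5.91 CPM), so this setting is not independent of that library. The fit without a filter gave each gene an SE of 0.15, against 0.27 for C5ar1 and 0.18 for C3ar1 in the fit described here. Its small p-values therefore rest on a smaller estimated spread. In Tim4KO cells the changes were -0.19 for C5ar1 (95% interval -0.77 to 0.39) and -0.09 for C3ar1 (-0.48 to 0.29). The Tim4KO minus WT difference of C5ar1 after ID8 was -0.78 (95% interval -1.37 to -0.20, edgeR adjusted p = 0.297), and -1.12 (edgeR adjusted p = 0.000169) without WT ID8 3. The difference between its challenge responses was -0.83 (95% interval -1.65 to -0.01, edgeR adjusted p = 0.668), and -1.17 (edgeR adjusted p = 0.0058) without WT ID8 3. With all libraries and no filter these were -0.82 (edgeR adjusted p = 0.000122) and -0.87 (edgeR adjusted p = 0.0444). Over all genes, the genotype comparison in ID8 cells called 1132 without WT ID8 3 and 264 without a filter, against 9 in the fit described here. The call of a C5ar1 genotype difference after challenge thus depends on 1 library and on the filter. Neutrophils also carry C5ar1. The 7 neutrophil markers summed to 6.47 to 9.47 CPM in naive libraries, to 28.2, 27.9 and 11.5 CPM in WT ID8 1, 2 and 3, and to 28.2, 30.8 and 20.9 CPM in Tim4KO ID8 1, 2 and 3. Within WT ID8 the sum was lowest in the library with the lowest C5ar1. Tim4KO ID8 1 and 2, with sums of 28.2 and 30.8 CPM, held C5ar1 at only 434 and 418 CPM. S100a8 made up most of the sum, at 5.50 CPM in WT naive cells, 17.9 CPM in WT ID8 cells and 15.8 CPM in Tim4KO ID8 cells. The markers did not move together in WT cells. S100a9 and Retnlg were also higher after ID8. Mpo went from 0.387 to 0.124 CPM and Elane from 0.496 to 0.0740 CPM. Ly6g (0.0696 and 0.0667 CPM) and Camp (0.162 and 0.158 CPM) hardly changed. The levels of Mpo, Elane, Ly6g and Camp lay near or below the floor of 3 counts. Up to 2 of the 7 markers were at 0 in a library. The part of neutrophils in the C5ar1 level was not tested.

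Genotype alone changed none of the 9 genes at the threshold. In naive cells 0 of 9 were called by edgeR, beside 0.0439% of all tested genes. DESeq2 also called 0 of 9, beside 52 genes over all. An unadjusted edgeR p under 0.05 was reached by 1 of the 9 and by 999 of all 15943 tested genes. The log2 differences (Tim4KO minus WT) ran from -0.14 for C1qa to 0.32 for C3ar1. The 1 gene was C4b at 0.31 (95% interval 0.01 to 0.61, edgeR adjusted p = 0.779). Cfp and C3ar1 were higher in each Tim4KO naive library than in each WT naive library, by 0.16 (edgeR adjusted p = 0.892) and 0.32 (edgeR adjusted p = 0.811). In ID8 cells edgeR called 0 of 9, beside 0.0565% of all tested genes, and DESeq2 called 0 of 9, beside 265 genes over all. An unadjusted edgeR p under 0.05 was reached by 2 of the 9, C5ar1 and C4b, and by 1935 of all 15943. C4b was 0.30 higher in Tim4KO there as well (95% interval 0.00 to 0.61, edgeR adjusted p = 0.409), and its 3 Tim4KO ID8 libraries were above the 3 WT ID8 libraries. C1qb and C1qc were likewise higher in each Tim4KO ID8 library than in each WT ID8 library, by 0.18 (edgeR adjusted p = 0.665) and 0.26 (edgeR adjusted p = 0.456). The share of all genes that separate in this way, by genotype or by challenge, was not counted, so these separations only describe the libraries. For the interaction edgeR called 0 of 9, beside 0% of all tested genes, and DESeq2 also called 0 of 9. An unadjusted edgeR p under 0.05 was reached there by 1 of the 9 and by 1186 of all 15943.

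To set these genes in the pathway, a wider list of 47 further complement genes was examined, of which 26 passed the filter on low counts. In WT cells 7 of the 26 rose and 5 fell, beside the 19.5% higher and 12.3% lower of all genes. In Tim4KO cells 5 rose and 3 fell, beside 11.5% and 5.06%. The median log2 change of the 26 was 0.00 in WT and -0.12 in Tim4KO, so the list did not move one way. In each genotype comparison 0 of the 26 were called by edgeR, beside 0.0439% (naive) and 0.0565% (ID8) of all tested genes. At an unadjusted p under 0.05 were 2 (naive) and 3 (ID8) of the 26, beside 999 and 1935 of all 15943. Of the 47, 23 averaged under 1 CPM in each of the 4 groups, including the terminal pathway genes C6, C7, C8a, C8b and C9.

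Among the soluble and surface recognition proteins, Fcna and Colec12 fell in both genotypes. Fcna, which encodes ficolin A, a recognition protein of the lectin pathway, changed by -1.27 in WT (edgeR adjusted p = 0.00223) and by -0.89 in Tim4KO (edgeR adjusted p = 0.0264). The Tim4KO call of Fcna was lost without WT ID8 1, any 1 Tim4KO naive library or Tim4KO ID8 2, where the change was -0.59 (edgeR adjusted p = 0.109). Colec12, a scavenger receptor of the collectin family, changed by -0.92 (edgeR adjusted p = 0.00054) and -0.84 (edgeR adjusted p = 0.00197). C5ar2 encodes the other C5a receptor and is the neighbour of C5ar1. It stood at 3.24, 6.92 and 5.29 CPM in WT naive and 2.41, 1.97 and 1.95 in WT ID8, a log2 change of -1.31 (edgeR adjusted p = 0.0132, and 0.0759 without WT naive 2). Its change in Tim4KO was -1.07 (edgeR adjusted p = 0.0547). C4a was also called lower in WT, at -0.96 (edgeR adjusted p = 0.0284), a call lost without any 1 WT naive library, WT ID8 2, WT ID8 3 or Tim4KO ID8 3 (edgeR adjusted p from 0.0534 to 0.114).

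Itgam, Itgb2, Calr, Lrp1 and C1qbp rose in both genotypes. Other receptors of the list for C3 fragments or C1q did not pass the test in WT or Tim4KO: the log2 changes were -0.43 and -0.51 for Vsig4, -1.66 and -1.37 for Cr2, -0.05 and -0.04 for Cr1l, -0.04 and -0.20 for Cd93 and -0.57 and 1.29 for Itgax, genes named after their values were seen. Itgam and Itgb2 encode the chains of complement receptor 3. Itgam went from 1176 ± 163 to 1936 ± 288 CPM in WT (log2 change 0.72, SE 0.14, edgeR adjusted p = 0.00168) and from 1308 ± 18.5 to 2132 ± 191 CPM in Tim4KO (0.71, SE 0.14, edgeR adjusted p = 0.00364). Itgb2 changed by 0.53 in WT (edgeR adjusted p = 0.00806) and 0.55 in Tim4KO (edgeR adjusted p = 0.0108). Calr encodes calreticulin, a chaperone of the endoplasmic reticulum that also binds C1q. It went from 531, 474 and 452 to 1160.0, 1321 and 899 CPM in WT and from 433, 314 and 349.6 to 983, 965 and 1093 CPM in Tim4KO. Its log2 change was 1.21 in WT (SE 0.16, edgeR adjusted p = 8.21e-05) and 1.47 in Tim4KO (SE 0.16, edgeR adjusted p = 3.8e-05). Lrp1, an endocytic receptor, changed by 0.80 in WT (edgeR adjusted p = 0.0178) and 1.20 in Tim4KO (edgeR adjusted p = 0.00325). C1qbp, whose product was named for C1q binding and resides mainly in mitochondria, changed by 1.10 (edgeR adjusted p = 0.000554) and 0.84 (edgeR adjusted p = 0.00643). In WT, upper-quartile scaling ended the calls of Itgb2 (0.29, edgeR adjusted p = 0.0561) and Lrp1 (0.57, edgeR adjusted p = 0.0804), while Itgam (0.49), Calr (0.96) and C1qbp (0.85) passed. The Itgb2 and Lrp1 calls each held in 6 of 9 other settings. Fitting only the WT groups also ended the Itgb2 call (edgeR adjusted p = 0.0765), as did a mean count of 50 or more for Lrp1 (edgeR adjusted p = 0.0576). Adding background reads to the model ended both (edgeR adjusted p = 0.168 for Itgb2 and 0.190 for Lrp1). Lrp1 in WT also lost its call without WT naive 1 (0.68, edgeR adjusted p = 0.0709), and Itgb2 in Tim4KO without Tim4KO naive 2, Tim4KO naive 3, Tim4KO ID8 1 or Tim4KO ID8 2 (edgeR adjusted p from 0.0519 to 0.0630).

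Cd55 encodes decay-accelerating factor, a membrane inhibitor of the C3 convertases, and had the largest change of the genes called here. It stood at 2.91, 3.26 and 5.57 CPM in WT naive and 17.1, 22.1 and 11.9 in WT ID8, a 4.29-fold increase (log2 change 2.10, SE 0.32, edgeR adjusted p = 0.000321). In Tim4KO it stood at 5.31, 5.04 and 2.41 CPM when naive and 5.66, 4.87 and 6.49 CPM after ID8, with a change of 0.45 (edgeR adjusted p = 0.392). The genotype difference in ID8 cells was -1.57 (SE 0.32, edgeR adjusted p = 0.0839), and it was -1.79 (edgeR adjusted p = 0.00101) without WT ID8 3 and -1.59 (edgeR adjusted p = 0.0320) without Tim4KO naive 3. With all libraries it was called in 3 of 9 other settings: without a filter (-1.62, edgeR adjusted p = 6.96e-07), with DESeq2 (-1.59, adjusted p = 0.000942) and with background reads in the model (-1.66, edgeR adjusted p = 0.0250). The background reads were lowest in WT ID8 3. Over all genes, this comparison called 264, 265 and 177 in these 3 settings. It called 1132 without WT ID8 3 and 18 without Tim4KO naive 3, against 9 in the fit described here. The difference between the challenge responses of Cd55 was -1.65 (SE 0.46, edgeR adjusted p = 0.668), -1.85 (edgeR adjusted p = 0.0209) without WT ID8 3 and -1.70 (edgeR adjusted p = 0.0101) without a filter. Every WT ID8 library, WT ID8 3 included, was above every other library for Cd55, unlike for C5ar1. The seventh gene that rose in WT was Cd59a, an inhibitor of the terminal complex, named after its values were seen (0.68, edgeR adjusted p = 0.0415). It lost its call without WT ID8 3 (0.42, edgeR adjusted p = 0.174), without WT naive 2 (edgeR adjusted p = 0.0912) and without WT naive 3 (edgeR adjusted p = 0.130). Of the 9 other settings, 2 called Cd59a, whose change was smallest with the background covariate (0.33, edgeR adjusted p = 0.498).

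**Figure D5:**
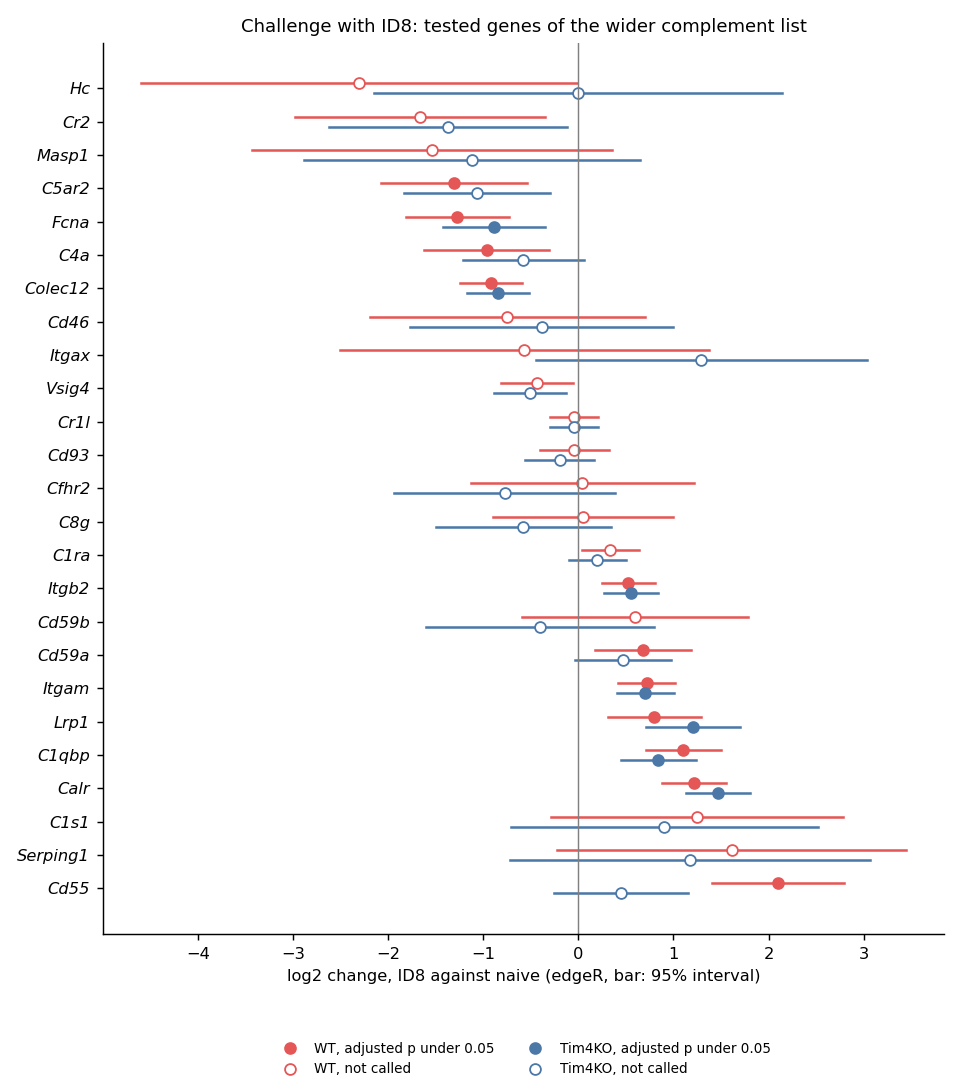
log2 change between ID8 and naive cells (x axis) for tested genes of the wider complement list (y axis, ordered by the WT change), with 95% intervals from the edgeR fit, in WT (red) and Tim4KO (blue). Cd55 is called at 2.10 in WT and lies at 0.45 in Tim4KO, while Calr is called in both, at 1.21 and 1.47.

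The genes whose pattern over the 12 libraries was most like that of C1q were sought among 9701 candidate genes whose mean count was 50 or more, by Pearson r with the mean log2 level of the 3 chains. They were Ly86 (r = 0.983), H2afj (0.955), Pilrb2 (0.953), Armc3 (0.932) and Tyrobp (0.919). With each group's mean removed, r was 0.930, 0.832, 0.857, 0.826 and 0.798 in the same order. Ly86, which encodes the partner of the surface protein RP105, averaged 347 CPM before and 188 CPM after challenge in WT cells, and 319.6 and 236 CPM in Tim4KO cells. Tyrobp, which encodes the signalling adaptor DAP12, averaged 1732 and 1117 CPM in WT cells and 1506 and 1226 CPM in Tim4KO cells. The genes most like C3 were Gpr107 (r = 0.907), Aplp2 (0.887), Nelfb (0.872), Pik3r5 (0.871) and Tmem131 (0.864). The libraries share their group, depth and background, so these values describe the 12 libraries only.

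Markers of other cells were low beside C1qa, C1qb, C1qc, C4b and Cfp and moved with challenge as follows. Epithelial, mesothelial and tumour markers (9 genes) summed to 5.72 to 25.0 CPM in naive libraries and 1.59 to 5.33 CPM in ID8 libraries, with up to 5 of the 9 at 0 in an ID8 library. B cell markers (6 genes) summed to 8.30 to 21.7 CPM in naive and 3.42 to 8.48 CPM in ID8 libraries, and mast cell markers (5 genes) to 13.1 to 38.6 and 2.18 to 9.41 CPM. Markers of small peritoneal macrophages and dendritic cells (9 genes) summed to 265 to 514 CPM in naive and 108 to 387 CPM in ID8 libraries, monocyte markers (4 genes) to 54.7 to 97.2 and 34.6 to 82.2 CPM, T and NK cell markers (6 genes) to 2.52 to 5.08 and 2.65 to 7.27 CPM, and eosinophil markers (4 genes) to 0.974 to 1.80 and 0.342 to 1.66 CPM. Each of the 5 complement genes that fell in WT stood at 788 CPM or more in every library, above each of these sums. The others did not all do so: C3 stood at 111 to 263, Cfb at 36.2 to 127, C3ar1 at 382 to 764 and C5ar1 at 368 to 978 CPM. A marker sum does not measure what such cells add to a complement gene. The part of these markers in the results was not tested. The general macrophage markers (5 genes) summed to 42875 to 49807 CPM in naive and 13493 to 17799 CPM in ID8 libraries, mostly through Lyz2. Between WT naive and WT ID8 cells, Lyz2 went from 45656 to 12720 CPM, Csf1r from 1070 to 909 and Mertk from 149 to 131. Cd68 went from 615 to 1328 and Cd14 from 497 to 583 CPM. The large peritoneal macrophage markers (11 genes) summed to 24799 to 36799 CPM in naive and 37923 to 54811 CPM in ID8 libraries. Among them, Saa3 went from 7038 to 29655 and Alox15 from 11247 to 5470 CPM in WT. With the background reads as a covariate the WT changes were -0.87 for C1qa, -0.84 for C1qc, -1.16 for C4b and -1.18 for Cfp, all called, and -0.57 for C1qb, which was not (edgeR adjusted p = 0.0626). The same fit called C5ar1 higher, at 1.02, with the covariate lowest in WT ID8 3.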

How the data were processed

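The deposited table holds raw read counts per Ensembl gene for 12 libraries, which the authors made from SMART-Seq mRNA libraries of sorted macrophages, per the labels' protocols. The submitters' processing notes name FastQC and STAR 2.5, and name mm10 for all 12 libraries and GRCm39 for 11 of them, with no role. The counting program, annotation release, strand setting and treatment of multi-mapping reads are not given in the sources used here. Gene symbols came from GENCODE vM21 and matched 52029 of 57010 identifiers. Promoters came from RefSeq (GRCm38.p6).

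edgeR 4.0.16 (R 4.3.3) was run on the 15943 genes that passed filterByExpr: TMM scaling, 1 robust quasi-likelihood fit over the 4 groups with 8 residual degrees of freedom, contrasts of group means and the interaction, two-sided, with Benjamini-Hochberg adjustment over all tested genes and a threshold of 0.05. The fit was tested on simulated data. Levels per kb divide CPM by the merged exon length. Similarity between genes was taken on log2(CPM + 0.5). Library totals of 7358559 to 23170244 counts set the precision, and without molecular identifiers the floor of 3 counts covers counting error only. Alternatives were RLE and upper-quartile scaling, no filter, a mean count of at least 50, DESeq2 1.42.0, limma 3.58.1 (voom), only the groups compared, a replicate block, background reads as a covariate, and leaving out each library.

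All 9 genes are described in every comparison. From the wider list of 47 complement genes, up to 6 called genes per direction were named by smallest p, and the 5 genes most like C1q and C3 by r. A single gene of that list is counted but not reported here. The members and lists were chosen with earlier results of these data known.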

Additional observations from a re-analysis of the deposited data

How the results depend on the processing

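The number of the 9 genes called lower or higher in WT was 5, and was 5 under the other settings except without a filter (7), with 4 to 7 when 1 library was left out. With the background covariate the 5 included C5ar1 (higher) and not C1qb. In Tim4KO it was 2, and rose to 4 with upper-quartile scaling, a mean count of at least 50, DESeq2 or the background covariate and to 5 with only the groups compared, with 2 to 4 when 1 library was left out. For genotype in ID8 cells and for the interaction it was 0, became 1 (C5ar1) without a filter, and was 0 to 1 when 1 library was left out, the 1 being without WT ID8 3. The cause of these moves was not tested. With the replicate number as a block it was 5 in WT, 2 in Tim4KO and 0 in the other comparisons, as without it. The numbers share no stated source: same-numbered libraries correlated at -0.0917 to 0.332 and others at -0.356 to 0.311 in their deviations from group means, and the closest library had the same number in 14 of 36 cases. Over all genes, upper-quartile scaling moved the WT split from 3105 higher and 1962 lower to 1799 and 3508, the Tim4KO split from 1836 and 806 to 1322 and 1394, and the WT median change from -0.04 to -0.28. Without a filter the median change was -0.84 in WT and -0.19 in Tim4KO. There the SE was 0.16 for C3 in WT and 0.26 for the Cd55 genotype difference in ID8 cells, against 0.26 and 0.32 in the main fit. Genes called over all ran from 3362 to 7229 in WT and 1222 to 3755 in Tim4KO when 1 library was left out. With only the groups compared they were 3102 and 3827. For genotype, leaving out 1 library gave 1 to 26 genes in naive cells and 1 to 1132 in ID8 cells. The 26 and the 1132 were both without WT ID8 3. DESeq2 called 52 (naive) and 265 (ID8) by genotype and 11 for the interaction, and no filter 59, 264 and 73, against 7, 9 and 0. Sign changes occurred only in uncalled log2 differences. For genotype in naive cells, Cfb was -0.016 with voom and -0.048 with the background covariate, and leaving out 1 library gave -0.41 to 0.29 for Cfb, -0.33 to 0.0038 for C1qb, -0.18 to 0.050 for C1qc and -0.049 to 0.17 for C5ar1. In ID8 cells, Cfp was -0.0023 with RLE, -0.0024 with DESeq2 and -0.039 without a filter, where C3 was -0.027, and leaving out 1 library gave -0.14 to 0.16 for Cfp, -0.20 to 0.14 for C3 and -0.34 to 0.17 for C3ar1. For challenge in WT, the background covariate gave -0.0066 for C3 and -0.32 for Cfb. In Tim4KO, C3 was -0.043 with upper-quartile scaling, -0.033 with a mean count of at least 50 and -0.034 with the covariate, and C1qb ran from -0.27 to 0.066 without 1 library. The C4b interaction was 0.12, 0.058 and 0.094 under the same 3 settings and -0.14 to 0.11 without 1 library, and the Cfp interaction was 0.050 with the covariate. The 9 genes each had at least 273 counts in every library, and the effect of depth on their calls was not tested. C4a had only 14 to 66 counts.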
